A study of Bos taurus with 16 samples.

Results

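Genes of the major histocompatibility complex (MHC) class II of cattle, with the invariant chain CD74 and the transactivator CIITA, were followed in CD14+ cells of blood and endometrium. Members were all oligonucleotides on the array whose gene name begins with BOLA-D, whose description carries a human HLA-D symbol in brackets, or whose symbol is CD74 or CIITA. The rule found 16 of the 21475 oligonucleotides of the array, for 15 genes of 20597 gene names. CD14 is the lipopolysaccharide co-receptor used to sort monocytes and macrophages. The cells were sorted from blood and from the interplacentomal endometrium (the lining between the sites of placental attachment) of 4 pregnant cows, for which no treatment was stated. They were collected at an abattoir at days 164, 239, 242 and 248 of pregnancy for animals 1 to 4, as estimated from the length of the fetus. RNA of both tissues of an animal was amplified and hybridized together on 2 arrays with 2 colors, so that each tissue had 8 channels and there were 16 in all. The dyes were swapped between the arrays of animals 1, 2 and 4 but not of animal 3. All endometrial cells came from pregnant animals and had been released with collagenase, which the blood cells had not, and by the study's methods they were somewhat less pure than blood cells after sorting.

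Class II molecules are pairs of an alpha and a beta chain that carry peptides from endosomes to the surface of antigen-presenting cells, where CD4+ T cells read them. DR and DQ are the classical molecules of cattle, which have no DP. CD74 fills the groove of new molecules until proteases remove it, DM then exchanges the remaining fragment for peptide, and DO restrains DM. DY is found in ruminants, and CIITA is the coactivator that switches on most of these genes, in macrophages mainly after interferon gamma. Monocytes, macrophages, dendritic cells and B cells all express the classical chains. In a gene table of the cattle genome assembly ARS-UCD2.0, DYA, DYB, DOB, DMB, DMA and DOA neighbor each other, as do the DQ and DR genes, whereas CD74 and CIITA lie on other chromosomes.

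Several DQ genes are closely related copies, and cattle differ in how many of them they carry. The sequences of the oligonucleotides that the DQ results turn on are shown because they set which copy a spot can report. The DQA1 oligonucleotide and the dimmer of 2 for DQA2 are given whole, 5′ to 3′, with the longest run that they share, 16 bases, in capitals:
BOLA-DQA1: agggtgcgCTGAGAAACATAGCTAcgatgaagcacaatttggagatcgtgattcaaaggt
BOLA-DQA2, dimmer oligonucleotide: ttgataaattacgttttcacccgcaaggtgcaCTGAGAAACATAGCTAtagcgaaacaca
Stretches of 30 bases follow for the DQA oligonucleotide and the brighter one for DQA2, with the 14 bases that they share in capitals:
BOLA-DQA: atgtatctATGGAAGCAATAAAtctcttta
BOLA-DQA2: gtattgccATGGAAGCAATAAActcctctt
The first 30 bases of both DQ beta oligonucleotides and of DYB and DOB, the tested members that were lower in endometrium in every animal, are these:
BOLA-DQB: tccagagcagactgtgggagagaagcacat
BLA-DQB: tctactcagatcccaaaagcttcctttgct
BOLA-DYB: cgcatcatccatcaggacctgactcccggt
BOLA-DOB: ctccaaacgcagccccgaagtcttcagaag
No other pair among the members and the 3 further class II oligonucleotides described below shared a run of 10 bases or more. The capitals of the second pair hold the letters AATAAA, a signal for polyadenylation, which were found on the printed strand of 4 of the 16 members (25%) and of 11.8% of all oligonucleotides. BLA-DQB, outside the naming rule, corresponds to BOLA-DQB1 in the gene table.

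Before the class II genes, the markers of the sorted cells were examined. Animal 1 stood apart from the other animals in blood and, for part of the markers, in endometrium. All levels are the authors' normalized signals on a log2 scale, averaged over the 2 arrays of an animal. The CD14 level in blood cells was 16.12 in animal 1 but 5.76, 8.85 and 6.94 in animals 2, 3 and 4, and in endometrial cells it was 14.04 against 6.07, 9.5 and 7.38. CD14 was well above background in all 16 channels. CSF1R, the receptor for a macrophage growth factor, was also highest in animal 1, at 14.73 in blood against 6.67, 9.33 and 7.69. Genes of T cells had the opposite order, and CD3E was at 8.03 in the blood cells of animal 1 and at 14.07, 13.01 and 14.24 in the others. In endometrium, CSF1R was at 16.15 in animal 1 against 10.71, 13.01 and 12.68, and CD3E at 10.29 against 15.18, 14.72 and 13.98. CD68, also of the monocyte and macrophage list, was highest in animal 1 in endometrium too, at 14.58 against 7.21, 10.55 and 11.6. The stromal gene DCN was there at 15.97 against 5.78, 11.74 and 9.11. Some other endometrial markers did not set animal 1 apart. The macrophage marker AIF1 was at 16.07, 14.53, 16.07 and 16.09 there, and the monocyte marker S100A8 at 13.74, 8.16, 14.3 and 12.81. For CD79A, part of the B-cell receptor, blood levels were 12.61 in animal 1 and 13.67, 15.5 and 13.76 in animals 2 to 4. The cells labeled CD14+ in animals 2 to 4 thus had less CD14 RNA and more T-cell RNA than those of animal 1. Cells were sorted with an antibody to the CD14 protein, which these RNA signals do not measure. The ratios of all members, and the calls in other lists, are also given without animal 1. Of 5 trophoblast oligonucleotides tested, such as that of prolactin-related protein PRP1, 5 were called higher in endometrium (4 without animal 1), as were 5 of 7 for epithelium, such as KRT18 (2 without animal 1). The median log2 ratios of these lists were 5.19 and 3.91 with animal 1 and 5.38 and 4.02 without it. The level of a class II gene therefore describes the sorted cells as a mixture, in which fewer cells of a type and less RNA per cell cannot be told apart.

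**Figure D1:**
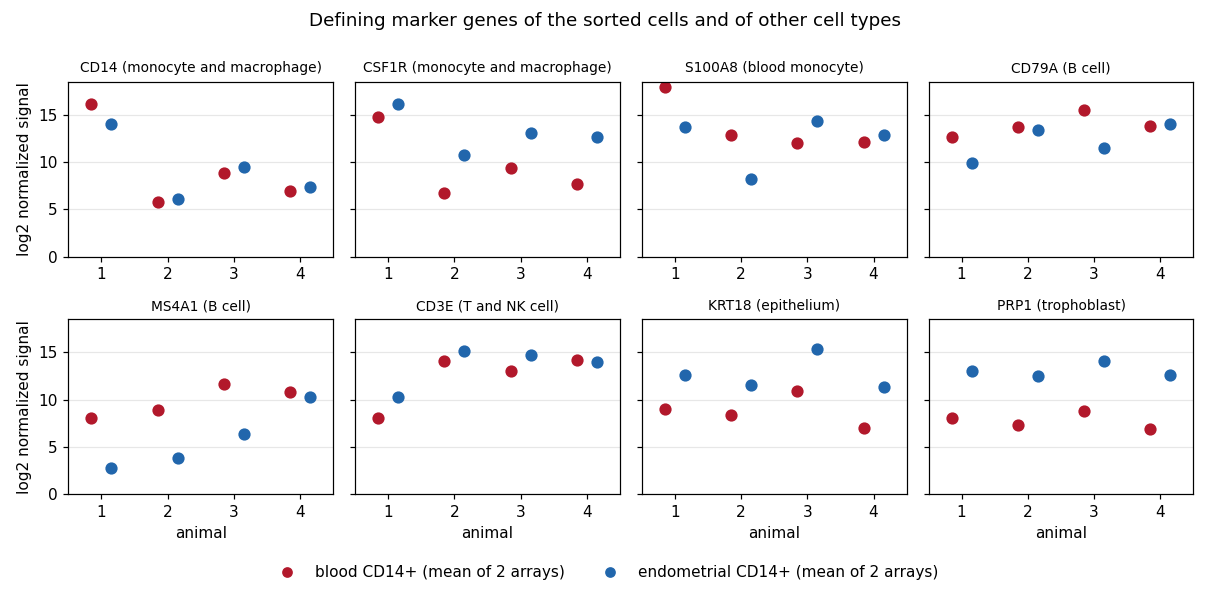
Log2 normalized signal (y axis) of 8 marker genes in blood (red) and endometrial (blue) CD14+ cells of each animal (x axis), with each point the mean of 2 arrays. CD14 was at 16.12 and 14.04 in animal 1 and between 5.76 and 9.5 in the other animals, whereas CD3E had its lowest blood level, 8.03, in animal 1.

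No class II gene passed the test between endometrium and blood over the 4 animals. A fold change over 2 with an adjusted p of at most 0.05 in limma was found for 0 of the 14 members tested, against 1.35% of the 16654 oligonucleotides tested (0.12% were called lower in endometrium). Testing required a signal well above background in 4 or more channels of either tissue, which DYA and the dimmer oligonucleotide for DQA2 did not have. Adjusted p values of the members lay between 0.205 and 0.785. All 14 mean log2 ratios of endometrium over blood were below 0, with a median of -1.39, whereas the median over all oligonucleotides tested was -0.14. With p left unadjusted and the same limits, BOLA-DRB2, BOLA-DYB and BOLA-DOB were lower in endometrium, 3 of 14 members against 8.05% of all oligonucleotides. With the methods' test for each oligonucleotide alone, 1 of the 14, BOLA-DYB, was lower in endometrium at the unadjusted limits, as were 3.58% of all oligonucleotides, and 0 at the adjusted ones. Standard errors of the members' ratios were 0.49 to 0.86 over 4 animals.

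The ratios of the members depended on the animal. Their median log2 ratios were -0.15, -2.09, -2.66 and 0.09 for animals 1, 2, 3 and 4. Endometrial levels were more than 2-fold lower than blood levels for 11 of 14 members in animal 2, where this held for 20.5% of all oligonucleotides, and for 12 of 14 in animal 3, where it held for 33.8%. In animal 1 they were so for 5 of 14 members and in animal 4 for 1 of 14, with 26% and 16.2% of all oligonucleotides. These counts and medians include DQA and DQB in animal 4 and DQA2 in animal 2. There neither tissue was well above background, so those ratios compare background signals. In both animal 2 and animal 3 this was true of 10 of the 14 members and of 12.1% of all oligonucleotides, a pair of animals chosen after the values were seen. The dyes were swapped between the arrays of animal 2 but not of animal 3, and the part of the dye in these ratios was not tested in animal 3. With 1 animal at each day of pregnancy, the day and the animal cannot be told apart. Without animal 1, the median log2 ratio of the members was -1.59 and 0 of 14 were called, and the ratios of DRA, DRB3 and DRB2 were -1.31, -1.29 and -1.62. Those of DQA, DQA1, DQA2 and DQB were then -1.96, -2.04, -0.26 and -2.09, and those of DYB, DMA, DMB, DOA and DOB were -1.76, -0.09, -1.4, -2.45 and -2.48. CD74 and CIITA had -1.56 and -0.93 without animal 1. Adjusted p values of the 14 without animal 1 ranged from 0.322 to 0.964.

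**Figure D2:**
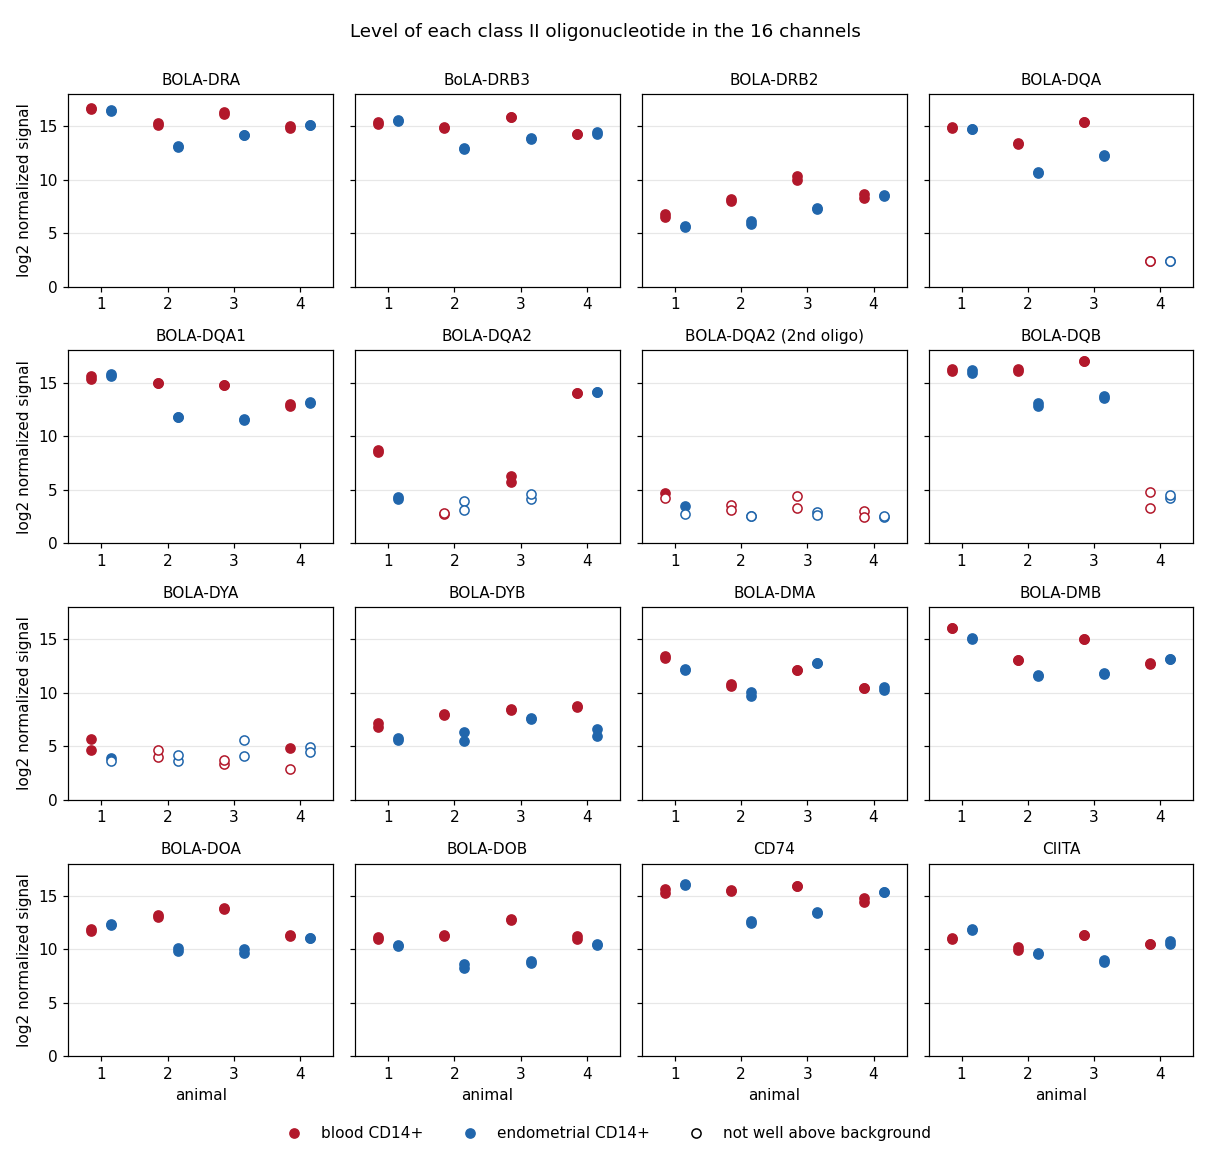
Log2 normalized signal (y axis) of the 16 class II oligonucleotides in each animal (x axis), for blood (red) and endometrial (blue) CD14+ cells, with a point for each array and open points where the spot was not well above background. Blood and endometrium lie together in animals 1 and 4 for most genes and apart in animals 2 and 3, and the DQA and DQB points of animal 4 are all open.

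DR is found on the surface of most antigen-presenting cells. BOLA-DRA, the DR alpha chain, had blood levels of 16.62, 15.17, 16.2 and 14.89 in animals 1 to 4 and endometrial levels of 16.47, 13.1, 14.16 and 15.06. The tissues thus overlapped, and endometrium was lower in animals 2 and 3, with log2 ratios of -2.08 and -2.04 (4.22- and 4.11-fold higher in blood), and close to blood in animals 1 and 4, with -0.15 and 0.17. BoLA-DRB3, the main DR beta chain, was at 15.29, 14.84, 15.85 and 14.24 in blood and at 15.52, 12.87, 13.84 and 14.33 in endometrium. Its log2 ratios of 0.23, -1.97, -2.01 and 0.09 had the same split. Mean log2 ratios were -1.02 ± 0.58 (SE, n = 4, adjusted p = 0.429) for BOLA-DRA and -0.91 ± 0.59 (adjusted p = 0.483) for BoLA-DRB3. The 2 arrays of an animal, which are technical replicates, differed by at most 0.2 for these genes. BOLA-DRB2, another DR beta gene, had blood levels of 6.65, 8.09, 10.12 and 8.42 and endometrial levels of 5.61, 5.98, 7.28 and 8.5. Its ratio was -1.48 ± 0.6 (adjusted p = 0.3), lower in endometrium in 3 of 4 animals.

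The DQ genes showed a second pattern, between animals rather than tissues. BOLA-DQB, a DQ beta chain, was at 16.18, 16.19 and 17.02 in the blood cells of animals 1 to 3 and at 4.02 in animal 4, where none of the 4 channels was well above background. In endometrium its levels were 16.03, 12.96, 13.66 and 4.33. BOLA-DQA, a DQ alpha chain that the gene table names BOLA-DQA5, was at 14.84, 13.36, 15.39 and 2.4 in blood and at 14.71, 10.64, 12.22 and 2.41 in endometrium. It too had no channel well above background in animal 4. The brighter oligonucleotide for BOLA-DQA2 had the reverse order, with 14.04 in blood and 14.12 in endometrium of animal 4, against 8.58, 2.76 and 6 in blood and 4.22, 3.51 and 4.39 in endometrium of animals 1 to 3. Other DQ genes were bright in all 4 animals. BOLA-DQA1 was at 15.48, 14.95, 14.74 and 12.89 in blood and at 15.73, 11.76, 11.54 and 13.15 in endometrium, and BLA-DQB had levels from 12.96 to 15.7 over both tissues of the 4 animals. The dimmer oligonucleotide for BOLA-DQA2 had levels of 2.49 to 4.47, with 1 of 8 channels of each tissue well above background. In animal 4 both tissues thus showed the same DQ oligonucleotides bright and the same ones dim. The DQ genes are closely related and the files do not show which copies an animal carries, so these levels are given as signals of the oligonucleotides.

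**Figure D3:**
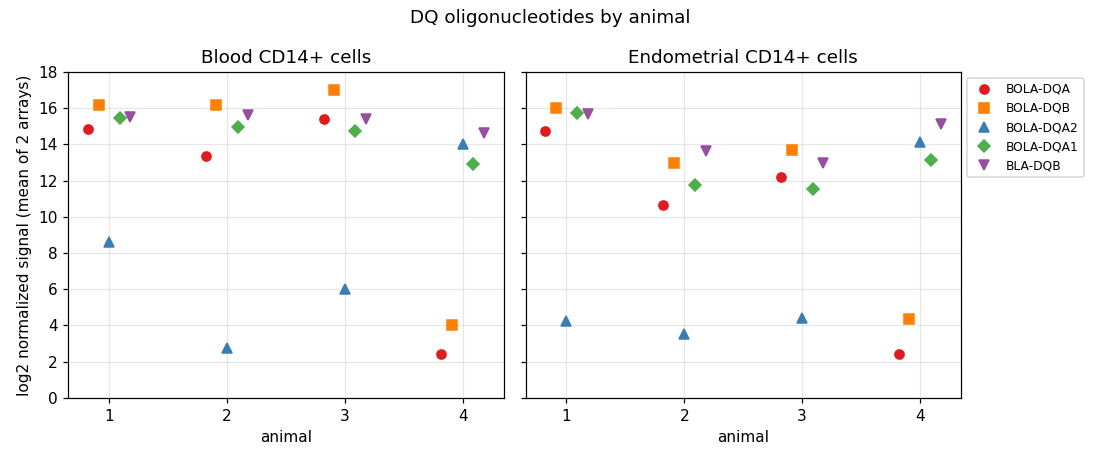
Log2 normalized signal (y axis, mean of 2 arrays) of 5 DQ oligonucleotides in each animal (x axis), for blood (left) and endometrial (right) CD14+ cells. In animal 4, BOLA-DQA and BOLA-DQB lay between 2.4 and 4.33 and BOLA-DQA2 at 14.04 and 14.12, the reverse of animals 1 to 3.

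Where the DQ genes gave a signal, their tissue ratios had the split of the DR genes. The log2 ratios of BOLA-DQB were -0.15, -3.23 and -3.36 in animals 1 to 3, those of BOLA-DQA were -0.13, -2.72 and -3.18, and those of BOLA-DQA1 were 0.25, -3.19, -3.2 and 0.26 in animals 1 to 4. The blood levels of these 3 genes were thus 6.6-fold to 10.3-fold above the endometrial ones in animals 2 and 3. Over all 4 animals, with the dim values of animal 4 included, the ratio was -1.61 ± 0.77 (SE, adjusted p = 0.356) for BOLA-DQB and -1.5 ± 0.7 (adjusted p = 0.344) for BOLA-DQA. With animal 4 dropped from their fits because both tissues were dim, a choice made after seeing the data, they were -2.25 ± 0.81 (adjusted p = 0.242) and -2.01 ± 0.77 (adjusted p = 0.266) over 3 animals. BOLA-DQA1 had -1.47 ± 0.78 (adjusted p = 0.4). BOLA-DQA2 was the exception, with -4.36 in animal 1, 0.74 in animal 2, where it was dim in both tissues, and a mean of -1.29 ± 0.86 (adjusted p = 0.496). Its mean was -1.96 ± 0.93 (adjusted p = 0.343) with animal 2 dropped because both tissues were dim, but -0.26 without animal 1.

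BOLA-DYB, the DY beta chain, was lower in endometrium in 4 of 4 animals, which held for 15.2% of all oligonucleotides and for 2 of the 14 members. Its blood levels were 7, 7.97, 8.41 and 8.69 and its endometrial levels 5.64, 5.89, 7.6 and 6.29, which overlapped between tissues. The log2 ratios were -1.36, -2.07, -0.8 and -2.41, and their mean, -1.66 ± 0.49 (SE, adjusted p = 0.205), corresponds to a 3.16-fold higher blood level. The SD of its 4 ratios, 0.72, was the smallest of the 14 members. In animal 4, where most members had a ratio near 0, DYB had its most negative one. From the median spot intensities, with normexp, loess and quantiles in place of the authors' values, its mean ratio was -0.64. BOLA-DYA, the DY alpha chain, was well above background in 3 of 8 blood and 1 of 8 endometrial channels, between 3.5 and 5.19, and was not tested.

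The nonclassical chains differed among themselves. BOLA-DOB, the DO beta chain, was at 11.05, 11.31, 12.74 and 11.09 in blood and at 10.36, 8.46, 8.83 and 10.43 in endometrium. Its blood levels all lay above its endometrial levels, but the share of all oligonucleotides without overlap was not counted. The ratio of BOLA-DOB, -2.03 ± 0.68 (SE, n = 4, adjusted p = 0.238), corresponds to a 4.09-fold higher level in blood. BOLA-DOA, its alpha chain, had 11.81, 13.07, 13.8 and 11.31 in blood and 12.28, 9.97, 9.83 and 11.03 in endometrium. DOA and DOB shared large negative ratios in animals 2 and 3, with -3.1 and -3.97 for DOA and -2.85 and -3.91 for DOB, but not in animal 1, with 0.47 and -0.69. The DM beta chain, BOLA-DMB, was at 16.05, 13.07, 14.97 and 12.69 in blood and at 15.03, 11.58, 11.78 and 13.18 in endometrium, with ratios of -1.03, -1.5, -3.19 and 0.49, and a mean of -1.31 ± 0.66 (adjusted p = 0.375). The alpha chain, BOLA-DMA, was at 13.32, 10.74, 12.11 and 10.46 in blood and at 12.2, 9.87, 12.79 and 10.38 in endometrium, with ratios of -1.12, -0.86, 0.68 and -0.07. The mean of DMA, -0.34 ± 0.51 (adjusted p = 0.785), was the closest to 0 among the members, and in animal 3 the DM chains had opposite signs.

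CD74, the invariant chain, was at 15.47, 15.48, 15.89 and 14.61 in blood and at 16.03, 12.53, 13.44 and 15.35 in endometrium. Its log2 ratios of 0.56, -2.95, -2.45 and 0.73 were above 0 in animals 1 and 4 but gave 7.72-fold and 5.47-fold higher blood levels in animals 2 and 3, and their mean was -1.03 ± 0.77 (SE, n = 4, adjusted p = 0.547). CIITA was at 11.01, 10.09, 11.36 and 10.45 in blood and at 11.83, 9.57, 8.88 and 10.66 in endometrium. Its ratios of 0.82, -0.52, -2.48 and 0.21 were large in animal 3 only, with a mean of -0.49 ± 0.64 (adjusted p = 0.753), and without animal 3 the mean was 0.17. In animal 2 the ratio of CIITA was thus closer to 0 than those of BOLA-DRA and CD74.

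**Figure D4:**
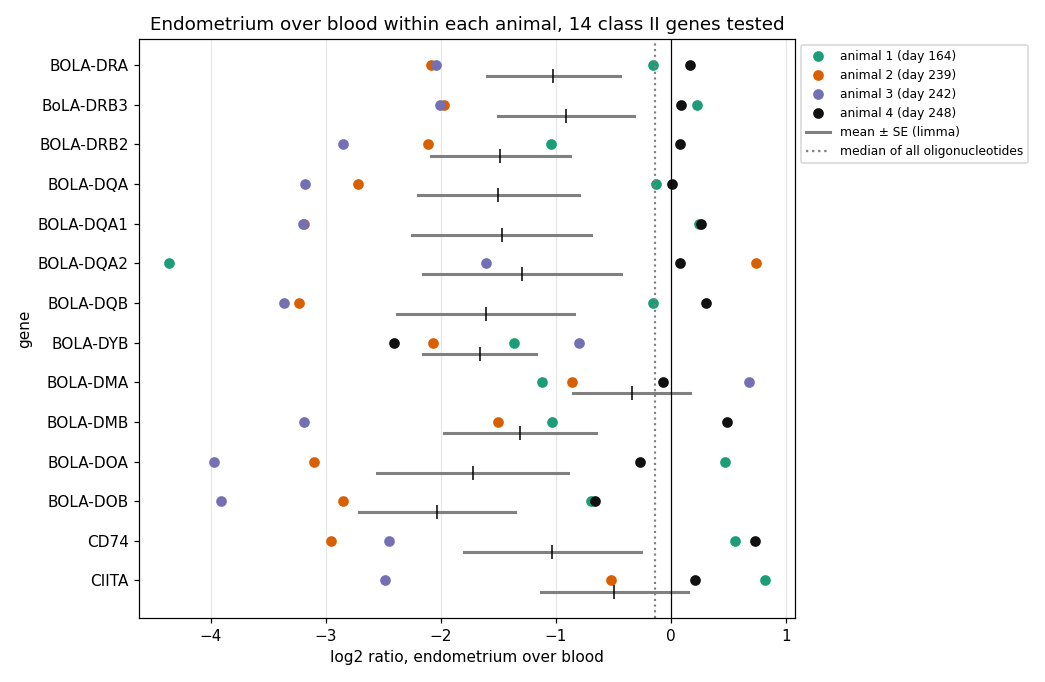
Log2 ratio of endometrium over blood (x axis) of the 14 class II genes tested (y axis), with a point for each animal, the mean and its SE from limma below, and a dotted line at the median of all oligonucleotides tested, -0.14. Animals 2 and 3 lie at about -2 to -4 for most genes and animals 1 and 4 near 0, whereas BOLA-DYB lies below 0 in all 4 animals.

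Marker levels of other cell types also differed between tissues by animal. For 9 B-cell oligonucleotides tested, of genes such as CD79A, MS4A1 and CD79B, the summed level in blood was 14.44, 16, 17.63 and 15.8 on the log2 scale in animals 1 to 4 and in endometrium 11.75, 13.84, 14.78 and 15.71. The differences of endometrium from blood were -2.69, -2.16, -2.85 and -0.09, and such sums follow the brightest oligonucleotides. The medians of the 9 ratios were -3.11, -3.57, -4.04 and -0.5. By both measures the B-cell values were low in animals 1, 2 and 3, whereas the class II medians were low in animals 2 and 3 and near 0 in animals 1 and 4. Of the 9, 2 were called lower in endometrium, BLK, a B-cell kinase, with -3.36 ± 0.49 (adjusted p = 0.0269), and POU2AF1, a B-cell coactivator, with -4.41 ± 0.71 (adjusted p = 0.0397). Without animal 1 their ratios were -3.33 ± 0.62 and -4.69 ± 0.87, and neither was called (adjusted p = 0.118 for both). Over all oligonucleotides, 224 were called with animal 1 and 64 without it. In animal 1, where MS4A1 had a ratio of -5.34, the ratios of the 14 members ranged from -4.36 to 0.82, with 5 of them more than 2-fold lower in endometrium. CD79B, the partner of CD79A, was well above background in 8 of 8 blood and 2 of 8 endometrial channels, and MS4A1 in 8 and 4. The summed level of 8 monocyte and macrophage oligonucleotides was 18.52, 14.5, 13.81 and 13.56 in blood and 18.44, 15.17, 17.01 and 16.81 in endometrium, and that of 10 for T and NK cells was 13.16, 17.08, 16.28 and 17.43 in blood and 16.93, 18.94, 17.82 and 17.66 in endometrium. The summed level of 7 oligonucleotides for dendritic cells was 16.05, 15.87, 17.76 and 16.25 in blood and 15.96, 14.26, 13.3 and 16.14 in endometrium. The differences were -0.09, -1.61, -4.46 and -0.11, but such a sum follows the brightest oligonucleotides. The medians of the 7 ratios were -1.82, -0.36, -1.83 and -0.26, lowest in animals 1 and 3 and so unlike class II. Among the 7, CCR7, a homing receptor that lymphocytes also carry, had ratios of -2.03, -4.9, -5.6 and 0.14. IRF8, a factor also found in B cells, had 0.85, -1.39, -5.07 and -0.26. FLT3, a dendritic cell growth factor receptor, had -3.93, 2.81, -0.25 and -0.66. It was well above background in only 2 blood and 4 endometrial channels. CD1E, also of this list, had -1.78, 2.32, -1.83 and -0.69. The part of these cell types in the class II ratios was not tested.

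**Figure D5:**
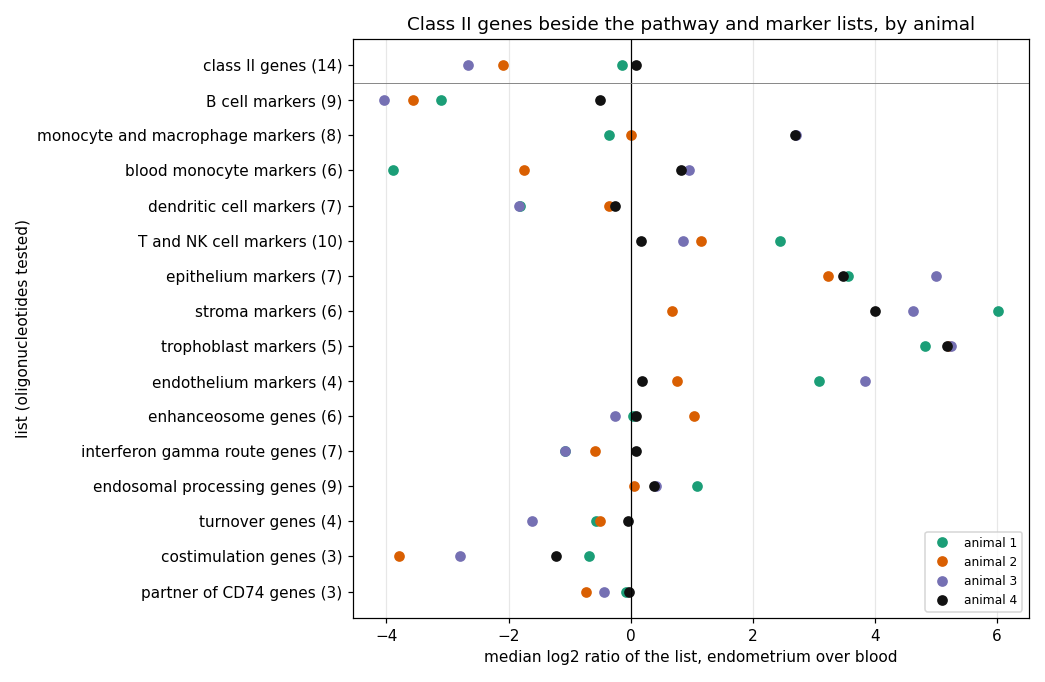
Median log2 ratio of endometrium over blood (x axis) in each animal for the class II genes and for the lists of marker and pathway genes (y axis, with the number of oligonucleotides tested). The class II medians were -2.09 and -2.66 in animals 2 and 3 and -0.15 and 0.09 in animals 1 and 4, and the costimulation genes were also lowest in animals 2 and 3.

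Of 32 genes of the class II pathway tested, 1 was called, as were 1.35% of all oligonucleotides tested. It was cathepsin L (CTSL), a lysosomal protease, which was higher in endometrium with a log2 ratio of 5.62 ± 0.55 (SE, n = 4, adjusted p = 0.00818). CTSL was at 9.55, 7.93, 9.85 and 8.82 in blood and at 15.32, 12.1, 16.5 and 14.73 in endometrium. The tissues did not overlap, but the share of all oligonucleotides without overlap was not counted. Without animal 1 its ratio was 5.57 ± 0.69 and just missed the call, and it was not called without animal 4 either. Among 9 oligonucleotides of endosomal processing, CST3, an inhibitor of cathepsins, and CTSB, another cathepsin, had ratios of 2.69 ± 0.65 (adjusted p = 0.146) and 1.5 ± 0.46 (adjusted p = 0.212), above 0 in 4 of 4 animals. CTSS, the protease that trims the invariant chain in most antigen-presenting cells, was at 0.17 ± 0.46 (adjusted p = 0.893).

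None of the 6 enhanceosome genes tested, which bind the class II promoters with CIITA, was called, nor was any of 7 genes on the interferon gamma route. RFXAP and RFXANK had ratios of -0.27 and 0.27, and on the interferon route the ratios ranged from -1.34 ± 0.54 (adjusted p = 0.3) for IRF1, a transcription factor induced by interferon, to 1.24 ± 0.68 (adjusted p = 0.413) for IFNG, interferon gamma itself.

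Several surface molecules that act beside class II on antigen-presenting cells, but not CD44, also had their most negative ratios in animals 2 and 3. CD40, the receptor for T-cell help, had ratios of -0.06, -4.05, -2.97 and -1.22. For CD86, a ligand of CD28, they were -0.68, -3.79, -2.39 and 1.35, and for CD80, its relative, -1.07, -3.61, -2.79 and -1.64. CD83, which keeps class II at the surface, had -0.15, -3.4, -4.49 and -0.1. CD40, CD86, CD80 and CD83 were not called, and their adjusted p values were 0.248, 0.461, 0.16 and 0.309. CD83 came from a list of turnover genes whose other tested members were not most negative in animals 2 and 3. Of these, IL10 had -3.93, -1.55, -3.68 and 0.36 (mean -2.2 ± 0.79, adjusted p = 0.254). UBE2D1 had -1, 0.69, 1.21 and -0.35, and MARCH8 had 0.38, 0.54, 0.43 and 0.02. CXCR4, a chemokine receptor that can pair with CD74, had -0.02, -3.95, -2.39 and -0.45, whereas MIF, the ligand of CD74, had a mean of 0.08 ± 0.46. CD44, listed as another partner of CD74, had -1.25, -0.73, 1.18 and -0.03, most negative in animal 1.

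Among 9375 oligonucleotides with a gene name and an SD of at least 0.5, the levels most like the mean of DRA, DRB3, DRB2, DQA1 and CD74 over the 8 means of an animal and tissue were those of AK7, SH3BP5, LYN, STK38L and CD83. Pearson's r, which describes these 8 points of 4 animals, was 0.987, 0.986, 0.973, 0.958 and 0.955. LYN, a kinase of B cells and myeloid cells, had ratios of -1, -3.51, -3.38 and 0 in animals 1 to 4. With CD74 alone as the pattern, 3 of these 5 genes were again among the first 5. Among the members that are themselves in the mean, r with it was 0.972 for DRB3, 0.97 for CD74, 0.931 for DRA, 0.877 for DQA1 and 0.452 for DRB2. For the others it was 0.911 for DOB, 0.901 for DOA, 0.846 for DMB, 0.812 for CIITA, 0.413 for DMA, 0.31 for DQA, 0.292 for DYB, 0.289 for DQB and 0.136 for DQA2.

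Class II oligonucleotides that the rule did not take were also examined. BLA-DQB had ratios of 0.19, -2, -2.45 and 0.49 (mean -0.94 ± 0.65, adjusted p = 0.513). An oligonucleotide for a predicted DR beta-like gene, LOC617421, had ratios of -2.1, -2.98, -3.66 and 0.55 (mean -2.05 ± 0.74, adjusted p = 0.258), and the third, for LOC618722, was well above background in none of the 16 channels.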

How the data were processed

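CD14+ cells of blood and endometrium were compared on 8 Agilent bovine arrays. The authors deposited a table of log2 values, which by the methods had gone through lowess and then quantile normalization, and scanner files with the intensity of each spot (medians 48 to 402.75, with 65.2% to 82.9% of spots flagged as well above background and 0 saturated). The submitters' notes name Agilent Feature Extraction 9.5. Each column of the table equaled, at 100% of the oligonucleotides within 0.001, the labeled dye of the array deposited under the animal's other technical replicate, and flags were taken from there.

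The table gave the main values, since its columns carry the sample labels. Its 2 spots of an oligonucleotide were averaged, then the 2 arrays of an animal. The ratio of endometrium over blood within animals was tested against 0 with lmFit and eBayes of limma 3.58.1 in R 4.3.3, with Benjamini-Hochberg adjustment over all oligonucleotides tested, since an exact permutation test over 4 animals cannot give a p under 0.125. Pairing comes from the animals (deviations of both tissues from the tissue means correlated with r of 0.628, 0.372, 0.239 and 0.452). The fits were tested on simulated data. Precision is limited by the number of animals, 4.

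Named were all members, the called genes of the pathway list, the 5 genes most like the class II level and, after their values were seen, others of the lists. Names came from the ARS-UCD2.0 gene table where it matched, for 3519 oligonucleotides by accession, 9987 by gene identifier and 297 by symbol. Of several oligonucleotides for a gene the brightest tested was taken. The symbol PAG1, which names a different gene on the array, was left out of the trophoblast markers. Results for a few listed genes are not given. Members and lists were chosen with earlier results of these data known. Alternatives changed the intensities, normalization, filter, block, dye term, test, threshold, arrays and animals.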

Additional observations from a re-analysis of the deposited data

Results flagged for a closer look

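In 4 of the 42 sets of 4 animals examined (the levels of 14 members in each tissue and their ratios), 1 animal lay so far from the others that the gap passed Dixon's 95% critical value, which chance alone does in about 1 set in 20. The BOLA-DQB level in blood was 4.02 in animal 4 against 16.18 to 17.02 in the others. The BOLA-DQA level in blood was 2.4 in animal 4 against 13.36 to 15.39. BOLA-DQA2 was at 14.12 in the endometrium of animal 4 against 3.51 to 4.39. In animal 3, the blood level of BOLA-DOB was 12.74 against 11.05 to 11.31.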

How the results depend on the processing

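No member was called under 17 of 18 alternatives, and with an unadjusted p there were 3, all lower in endometrium, among 2670 oligonucleotides. The median log2 ratio of the members stayed below 0 under each alternative run for it, from -1.82 without animal 4 to -0.92 without animal 3, and to -0.11 with the scanner files as attached. Over all oligonucleotides, 224 were called, of which 204 were higher in endometrium. The count was 11 with normexp, loess and quantiles, 0 with the scanner files as attached, 0 with the methods' test, 123 with no filter on dim oligonucleotides, 38 with no replicate block (tissues not paired within animals, where the member median was -1.39), and 0 to 180 when 1 animal was left out, 0 without animal 4, 64 without animal 1 and 95 without animal 3. With the files as attached, the ratios of BOLA-DMA, BOLA-DQA2, BOLA-DYB and BOLA-DQB were 0.64, 0.28, 0.45 and 0.01. In that reading, blood and endometrium are exchanged, relative to the main values, in the 3 animals whose dyes were swapped. CIITA ranged from -0.93 without animal 1 to 0.17 without animal 3. With normexp, loess and quantiles on the median intensities, BOLA-DRB2 moved to -0.7, BOLA-DYB to -0.64 and BOLA-DQA2 to -0.37, and the cause was not tested. Leaving out animals in which an oligonucleotide was dim in both tissues, chosen after seeing the data, gave 290 calls and none of a member. Signals near the background limit the DYA and DQA2 values.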
